A study of Mus musculus with 15 samples.

Results

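Mertk, Axl and Tyro3 are the TAM receptors, a family of receptor tyrosine kinases, and Gas6 and Pros1 (protein S) are their main ligands. The genes were chosen by name as these receptors and ligands, which gave 5 of the 23235 genes in a table of cortex transcript levels. Of these 5, 4 passed a filter of a mean of at least 1 FPKM over the groups, and *Pros1*, with a mean of 0.407 FPKM, did not. FPKM divides the fragments of a gene by the length of its transcript and by the size of the library, so that levels can be set side by side between genes of different length.

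Gas6 and protein S bind phosphatidylserine on the surface of dying cells or cell fragments through a domain that vitamin K-dependent carboxylation activates, and at their other end bind a TAM receptor on the engulfing cell. Gas6 binds all the TAM receptors, while protein S binds Tyro3 and Mertk. In brain, Mertk is known from astrocytes and microglia, where it takes part in the clearance of dead cells and synapses, Tyro3 is chiefly neuronal, and Axl is best known from microglia and vessels under inflammation.

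The study compared adult wild-type (WT) C57BL/6J mice with Snord116del (+/-) mice of the strain B6(Cg)-Snord116tm1.1Uta/J, in which the Snord116 snoRNA cluster of the Prader-Willi locus is deleted on the paternal chromosome. RNA-seq covered cortex of male mice, with 3 WT and 2 *Snord116del* mice at Zt +6 (hours after lights on, in the light phase) and 2 WT and 2 *Snord116del* mice at Zt +16 (dark phase). *116HG*, the spliced host transcript of the cluster, is lost with the deletion, and the DNA that associates with it was purified from brain by ChIRP, in which biotinylated oligos complementary to an RNA pull it out of cross-linked chromatin. Of the 5 lists of ChIRP peaks, 2 are replicates of *116HG* oligos on WT brain, and the other 3 are controls. These used *116HG* oligos on brain of *Snord116del* mice, or oligos of a non-specific control (NSC) on brain of either genotype. Each list came from 1 library, set against input of WT brain.

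The table holds 1 FPKM value per group and gene and no value per mouse, so the spread between mice cannot be seen, depth is unknown from it, and no test or error could be computed. Values below compare group values, and a gene was counted as past the fold rule where the ratio of FPKM + 1 between groups reached 1.5 and the larger value was 1 FPKM or more. The rule was applied to the 10297 genes that passed the filter. A gene can pass the filter through 1 high group alone, so a call of that group as higher is not independent of the filter. *Snord116* itself was listed at 0 in all 4 groups and so does not check the genotype. The group values summed over all genes lay between 159300 and 342188 FPKM, and *Gapdh*, a usual reference transcript, lay between 843 and 3368 FPKM, highest in *Snord116del* at Zt +16. At Zt +6, both *Snord116del* mice and 1 of the 3 WT mice are tied in the labels to an earlier version of the table than the remaining 6, and whether that marks a batch is not stated, so it cannot be told apart from genotype and time. In bulk cortex, fewer cells of a type and less RNA per cell cannot be told apart.

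All 5 genes had a *116HG* peak of replicate 1 within 2 kb, and none of the 5 had a peak of replicate 2 or of a control list there. The DNA under these peaks is shown here because most of it is exon: of the 32 peaks of replicate 1 at the 5 genes, 27 touched an exon. Positions are of mm9 (NCBIM37), sequences run 5′ to 3′ on the strand of the gene, and capitals mark coding bases. At *Mertk* (chr2:128524692-128628630, plus strand), 5 peaks held coding bases, and the sequences of 3 of them are given, at chr2:128555002-128555204, chr2:128602012-128602147 and chr2:128620215-128620330:
Mertk peak at 128555002: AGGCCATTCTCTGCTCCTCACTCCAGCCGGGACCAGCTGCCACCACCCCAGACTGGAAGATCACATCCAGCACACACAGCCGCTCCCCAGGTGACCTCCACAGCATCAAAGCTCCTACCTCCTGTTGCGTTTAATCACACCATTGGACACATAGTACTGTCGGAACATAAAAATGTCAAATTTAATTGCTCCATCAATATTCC
Mertk peak at 128602012: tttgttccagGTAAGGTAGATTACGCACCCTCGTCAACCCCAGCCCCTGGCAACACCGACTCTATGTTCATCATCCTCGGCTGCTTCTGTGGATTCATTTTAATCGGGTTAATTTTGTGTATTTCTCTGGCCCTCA
Mertk peak at 128620215: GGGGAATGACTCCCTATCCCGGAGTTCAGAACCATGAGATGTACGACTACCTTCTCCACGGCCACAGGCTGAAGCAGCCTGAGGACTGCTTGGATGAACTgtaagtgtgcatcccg
The first of these peaks was coding throughout. The second held 10 intron bases before its exon, and the third 16 intron bases past the end of its exon. A minus-strand gene model, *Gm14011*, and a *SNORA25* copy lie inside *Mertk*, and whether fragments were counted by strand is not given in the sources used here.

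A further *Mertk* peak, chr2:128524628-128524725, lay over the start of the gene. The 150 bases before the RefSeq start site, chr2:128524501-128524650, are shown because this was the only *Mertk* peak to reach upstream sequence, and here the capitals mark its 23 bases upstream of that start:
Mertk upstream: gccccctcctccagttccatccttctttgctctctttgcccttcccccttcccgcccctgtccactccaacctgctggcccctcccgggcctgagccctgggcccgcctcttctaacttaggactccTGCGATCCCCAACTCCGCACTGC
The other 75 bases of the peak lay past the RefSeq start. GC made up 65.3% of the 150 bases.

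*Gas6* (chr8:13465374-13494535, minus strand), the ligand of all the TAM receptors, had peaks on single coding exons that ended a few bases into the next intron, as at chr8:13470211-13470373 and chr8:13474643-13474803, where capitals again mark coding bases:
Gas6 peak at 13470211: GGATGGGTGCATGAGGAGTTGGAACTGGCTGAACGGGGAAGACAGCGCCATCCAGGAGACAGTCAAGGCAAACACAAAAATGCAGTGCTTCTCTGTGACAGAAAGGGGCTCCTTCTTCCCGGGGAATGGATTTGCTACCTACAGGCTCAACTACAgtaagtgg
Gas6 peak at 13474643: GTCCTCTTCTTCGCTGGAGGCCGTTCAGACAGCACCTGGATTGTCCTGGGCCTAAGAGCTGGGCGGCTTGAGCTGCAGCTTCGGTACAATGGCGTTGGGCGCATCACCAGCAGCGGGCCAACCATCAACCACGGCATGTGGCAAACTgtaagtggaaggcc
In the first of these 155 of 163 bases were coding and in the second 147 of 161.

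*Tyro3* (chr2:119623469-119643840, plus strand) was the only 1 of the 5 genes with a replicated peak, that is, a peak of one WT *116HG* replicate within 10 kb of a peak of the other. The replicate 1 peak chr2:119627293-119627560 over a coding exon and the replicate 2 peaks outside the gene, chr2:119618338-119618399, chr2:119650584-119650653 and chr2:119652038-119652112, are shown together with an upstream replicate 1 peak, chr2:119619458-119619583, since the replicated call rests on the distance between such peaks (intergenic sequences are given on the plus strand):
Tyro3 replicate 1 coding exon: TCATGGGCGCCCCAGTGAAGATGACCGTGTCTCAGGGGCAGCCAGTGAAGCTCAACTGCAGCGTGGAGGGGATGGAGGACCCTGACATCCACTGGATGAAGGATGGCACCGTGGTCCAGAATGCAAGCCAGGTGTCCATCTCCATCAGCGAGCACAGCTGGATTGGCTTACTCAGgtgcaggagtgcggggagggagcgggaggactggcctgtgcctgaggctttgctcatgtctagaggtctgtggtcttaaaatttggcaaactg
Tyro3 replicate 1 upstream: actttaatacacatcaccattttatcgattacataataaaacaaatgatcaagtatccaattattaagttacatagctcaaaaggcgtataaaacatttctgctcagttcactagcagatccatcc
Tyro3 replicate 2 upstream: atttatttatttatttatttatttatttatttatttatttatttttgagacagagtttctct
Tyro3 replicate 2 downstream, nearer: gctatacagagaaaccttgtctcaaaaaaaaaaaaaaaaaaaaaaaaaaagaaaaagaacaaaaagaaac
Tyro3 replicate 2 downstream, farther: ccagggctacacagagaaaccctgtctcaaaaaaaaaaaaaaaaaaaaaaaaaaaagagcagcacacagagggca
The sequences of the replicates were unlike. The downstream replicate 2 peaks held unbroken runs of 27 and 28 A bases, while the longest run of A or of T in the 32 replicate 1 peaks at the 5 genes was 8 bases. Shares of a list count its peaks on the reference sequence, 10664 for replicate 2, 77619 for replicate 1 and 3378 for WT NSC. Runs of at least 20 bases were in 32.6%, 9.70% and 4.50% of these. They were in 0.236% of *116HG* and 0.471% of NSC peaks on *Snord116del* brain. The letters GAGAAAC (on either strand) were chosen after these sequences were seen. All 3 replicate 2 peaks near *Tyro3* held these letters, and none of the replicate 1 peaks of the 5 genes did. Over the peaks on the reference the shares were 14.2% for replicate 2 and 5.83% for replicate 1.

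*Pros1* (chr16:62854133-62929172, plus strand) differed from the other genes in that its 2 peaks, chr16:62914679-62914748 and chr16:62919791-62919866, touched no exon:
Pros1 intron peak, nearer the start: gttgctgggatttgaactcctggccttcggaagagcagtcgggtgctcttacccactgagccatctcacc
Pros1 intron peak, farther: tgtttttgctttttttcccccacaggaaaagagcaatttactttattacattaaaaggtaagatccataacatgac
The sequences are in lower case because no base was coding. *Axl* (chr7:26542292-26573724, minus strand) had its 3 peaks in non-coding bases of the last exon, and its sequences are not shown.

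At Zt +6 the transcripts of all 3 TAM receptors and of *Gas6* were higher in *Snord116del* than in WT cortex and past the fold rule. Among these 4, *Mertk* had the largest difference, 6.91-fold in FPKM, followed by *Gas6* at 3.29-fold, while *Axl* (2.23-fold) and *Tyro3* (1.89-fold) differed little more than the typical gene did. The ratio of *Pros1*, which did not pass the filter, was 4.45-fold, between those of *Mertk* and *Gas6*. Of all 10297 tested genes, 56.9% were past the same rule, 49.3% higher in *Snord116del* and 7.62% lower, and the 4 of 4 tested members are to be read against that background.

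*Mertk*, a receptor that engulfing cells use, was at 1.52 FPKM in WT and 10.5 FPKM in *Snord116del* at Zt +6, and at 0.270 FPKM in WT and 0.457 FPKM in *Snord116del* at Zt +16. The *Snord116del* group at Zt +6 stood far above the other 3 groups, and the highest group was 38.9 times the lowest. On the log2(FPKM + 1) scale, which understates the change of low genes, the difference at Zt +6 was 2.19, with a median of 0.57 over all tested genes. This was rank 17 of 10297 by size of the increase, and 1.62 above that median.

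*Axl*, the receptor known to bind Gas6 but not protein S, was at 2.02 FPKM in WT and 4.50 FPKM in *Snord116del* at Zt +6, and at 1.58 FPKM in WT and 2.39 FPKM in *Snord116del* at Zt +16. Both *Snord116del* groups were above both WT groups. The log2(FPKM + 1) difference at Zt +6 was 0.86, with 66.2% of tested genes below it.

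*Tyro3*, the most abundant of the receptors in every group, was at 8.76 FPKM in WT and 16.6 FPKM in *Snord116del* at Zt +6, and at 6.93 FPKM in WT and 11.8 FPKM in *Snord116del* at Zt +16. As for *Axl*, both *Snord116del* groups were above both WT groups. The highest group was 2.39 times the lowest, the narrowest span of the 5 genes. The log2(FPKM + 1) difference at Zt +6 was 0.85, with 65.3% of tested genes below it.

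*Gas6* was at 3.02 FPKM in WT and 9.93 FPKM in *Snord116del* at Zt +6, and at 1.52 FPKM in WT and 1.98 FPKM in *Snord116del* at Zt +16. The order of the groups was that of *Mertk*: *Snord116del* at Zt +6, WT at Zt +6, *Snord116del* at Zt +16 and WT at Zt +16. The log2(FPKM + 1) difference at Zt +6 was 1.44, with 92.2% of tested genes below it.

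*Pros1*, the gene of protein S, also known as an anticoagulant of plasma, was the lowest of the 5 genes in every group, at 0.264 FPKM in WT and 1.17 FPKM in *Snord116del* at Zt +6 and at 0.0720 FPKM in WT and 0.120 FPKM in *Snord116del* at Zt +16. It had the same order of groups as *Mertk* and *Gas6*, but only in *Snord116del* at Zt +6 did it reach 1 FPKM. Its log2(FPKM + 1) difference at Zt +6 was 0.78, and no call was made for it because it did not pass the filter.

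**Figure D1:**
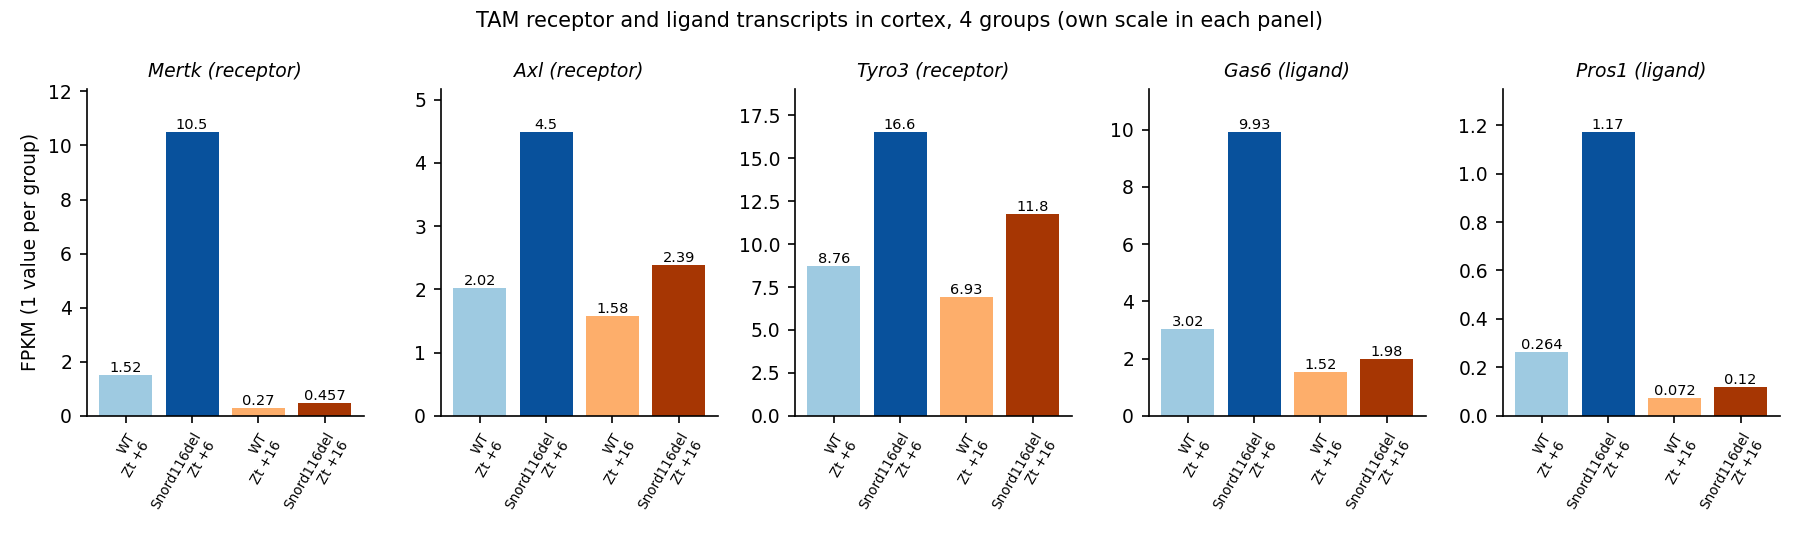
Level of each TAM gene (FPKM, 1 deposited value per group, no error available) in WT and *Snord116del* cortex at Zt +6 and Zt +16, each panel with its own scale from 0. The *Snord116del* bar at Zt +6 is the tallest in all 5 panels, and it stands farthest above the others for *Mertk*, at 10.5 FPKM against 1.52, 0.270 and 0.457.

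The make-up of the receptor transcripts differed between the groups. At Zt +6 the 3 receptors summed to 12.3 FPKM in WT and 31.6 FPKM in *Snord116del* mice, and at Zt +16 to 8.78 and 14.6 FPKM. At Zt +6 *Mertk* made up 12.4% of the receptor sum of WT mice and 33.3% of that of *Snord116del* mice, but at Zt +16 it was 3.08% and 3.13%. *Tyro3* was correspondingly 71.2% and 52.5% of the sum at Zt +6 and 78.9% and 80.5% at Zt +16, while *Axl* stayed between 14.2% and 18.0%. *Mertk* thus exceeded *Axl* in *Snord116del* at Zt +6, by 2.34-fold, and was below it in the other 3 groups. The ligand sum was 3.29 FPKM in WT and 11.1 FPKM in *Snord116del* at Zt +6, and 1.59 and 2.10 FPKM at Zt +16, and *Gas6* was between 89.4% and 95.5% of it.

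At Zt +6 *Axl* and *Tyro3* were past the fold rule only under some of the ways to put the groups on a common scale, while *Mertk* and *Gas6* were past it under each that was tried. With the median of the tested genes made equal in all groups, the log2 differences were 1.53 for *Mertk*, 0.74 for *Gas6*, 0.24 for *Axl* and 0.08 for *Tyro3*, and only *Mertk* and *Gas6* were past the fold rule. In these data the difference also moved with the length of the transcript. After the running median along transcript length was subtracted, *Mertk* was 1.33 and *Gas6* 1.05 above genes of like length, and *Axl* (-0.0016) and *Tyro3* (-0.015) were at the level of such genes. Scaled to *Gapdh*, the median of all tested genes rose to 1.24, and *Mertk* (2.98) and *Gas6* (2.18) remained above it by more than *Axl* (1.55) and *Tyro3* (1.56).

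**Figure D2:**
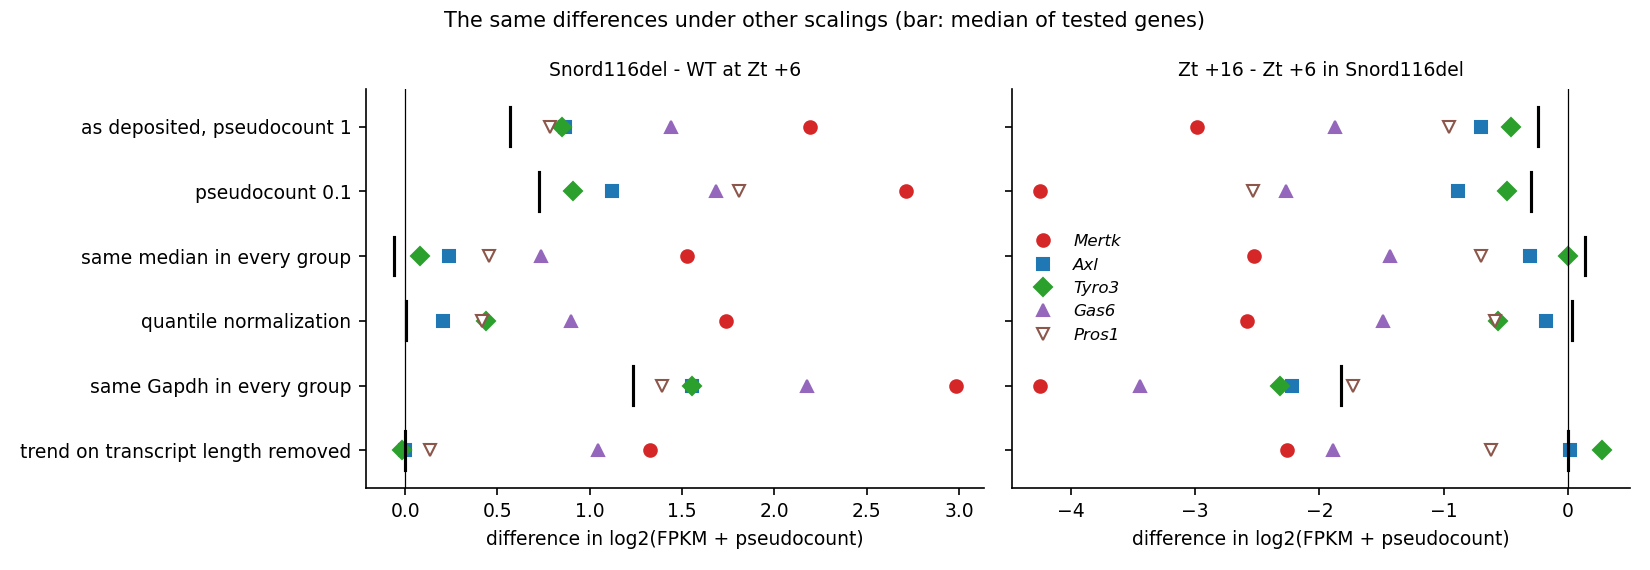
Log2 difference of each TAM gene (x axis) as deposited and under the 5 other scalings or pseudocounts (y axis), for *Snord116del* minus WT at Zt +6 (left) and Zt +16 minus Zt +6 in *Snord116del* (right); the black bar is the median of all tested genes and the open symbol is *Pros1*, which did not pass the filter. *Mertk* and *Gas6* lie farther from the bar than *Axl* and *Tyro3* in every row, and in the left panel *Axl* and *Tyro3* lie on it once the trend on transcript length is removed.

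At Zt +16 the same comparison gave a different picture: *Tyro3* was the only 1 of 4 tested members past the fold rule, against 19% of all tested genes higher, 0.204% lower and 19.2% in either direction. Its log2(FPKM + 1) difference was 0.69, with 89.1% of tested genes below it and a median of 0.35. *Mertk* could not be called here whatever its ratio. Both its values, 0.270 and 0.457 FPKM, were under the 1 FPKM that the rule asks of the larger. Its mean of 3.19 FPKM, which passed the filter, came mostly from the 10.5 FPKM of *Snord116del* at Zt +6. *Mertk* (0.20) and *Gas6* (0.24), the genes with the largest differences at Zt +6, were below the median of all genes as deposited, and *Axl* was near it (0.39). For *Mertk* this held also with the trend on length removed, but its difference was above the median of all genes with a pseudocount of 0.1 (0.59 against 0.46), the same median (0.08 against 0.01), quantile normalization (0.18 against -0.0031) and *Gapdh* scaling (-0.049 against -0.32). The FPKM ratio of *Mertk*, 1.69, was close to the 1.70 of *Tyro3*. *Pros1* was at 0.06. The call of *Tyro3* was lost when the groups were scaled to the same median (0.27), and all 5 differences were negative when the groups were scaled to *Gapdh*, whose own level was highest in *Snord116del* at Zt +16.

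The genotype differences at Zt +6 and Zt +16 share no mice and were set against each other for each gene. The log2 difference at Zt +6 exceeded that at Zt +16 by 1.99 for *Mertk*, which was rank 21 of 10297, and by 1.20 for *Gas6* (rank 890), with a median of 0.22. *Axl* (0.47) and *Tyro3* (0.16) were near that median, and the value of *Pros1* was 0.72. With 1 value per group these differences between times were not tested.

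From Zt +6 to Zt +16, *Mertk* was lower in both genotypes. In WT cortex the group at Zt +6 was 5.62 times that at Zt +16 in FPKM, and the log2(FPKM + 1) difference was -0.99, with 2.41% of tested genes below it and a median of -0.04. *Gas6* was also lower past the fold rule (-0.68), and *Axl* (-0.23) and *Tyro3* (-0.30) were not past it, so 2 of 4 tested members were lower, against 10.3% of all tested genes lower, 5.71% higher and 16% in either direction. *Pros1* was at -0.24. *Ttr*, the defining transcript of choroid plexus, was at 199.8 FPKM in WT at Zt +6 and 24.9 FPKM in WT at Zt +16, a larger log2 difference (-2.95) than that of *Mertk*, and its part in the result was not tested. The WT group at Zt +6 also takes part in the genotype comparison above, so the signs of these comparisons are not independent.

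In *Snord116del* cortex the span between times was wider. *Mertk* was 23.0 times higher in FPKM at Zt +6 than at Zt +16, a log2(FPKM + 1) difference of -2.98 and rank 58 from the lowest of 10297. *Gas6* (-1.88) and *Axl* (-0.70) were lower past the fold rule and *Tyro3* (-0.46) was not, so as deposited 3 of 4 tested members were lower, against 39.1% of all tested genes lower, 25% higher and 64% in either direction, and a median of -0.24. *Pros1* was at -0.96. The call of *Axl* was lost with the same median (-0.31), with quantile normalization (-0.18) and at a fold of 2, and *Tyro3* was past the rule under *Gapdh* scaling (-2.32). *Mertk* and *Gas6* stayed past the rule under each of the scalings tried, and *Axl* (0.017) and *Tyro3* (0.27) changed sign once the trend on transcript length was removed.

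**Figure D3:**
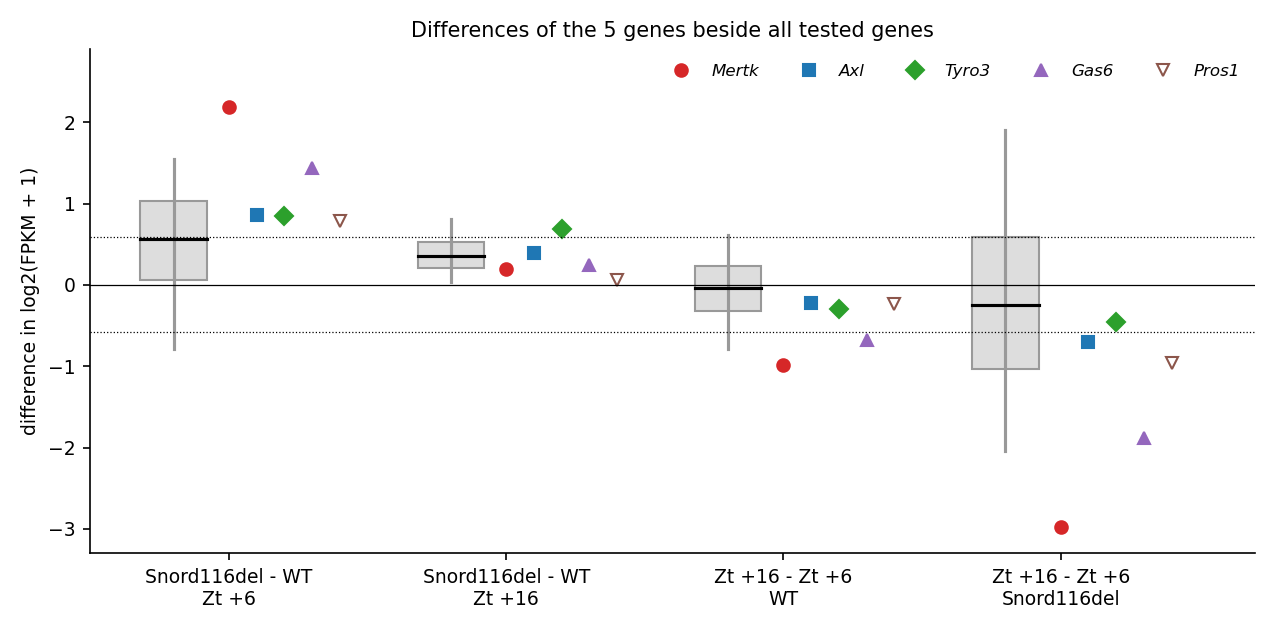
Difference in log2(FPKM + 1) (y axis) of the TAM genes in the 4 comparisons (x axis), beside the median (bar), quartiles (box) and 5th to 95th percentile (line) of the 10297 tested genes; dotted lines mark the fold rule and the open symbol is *Pros1*, which did not pass the filter. *Mertk* lies outside the line in 3 of the 4 comparisons, with 2.19, -0.99 and -2.98, and just below the box for *Snord116del* minus WT at Zt +16, with 0.20.

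Among the other genes of the pathway, 24 of 34 tested were higher in *Snord116del* than in WT at Zt +6, none of the 34 was lower past the rule, and the median was 0.87, against 49.3% of all tested genes higher and a median of 0.57. This count depended on the scaling: 6 were higher and 4 lower with the same median, 11 and 2 with quantile normalization, and 5 and 1 with the trend on length removed, where the median was 0.012. The lists hold 52 genes, and all were in the table. Genes are named below where they had the largest differences of a list, and genes named to spell out a count of 5 or fewer were picked after their values were seen. In the list of engulfment genes, 12 of 15 tested were higher as deposited, with a median of 0.91, but 2 with the same median, 6 with quantile normalization and 3 with the trend on length removed (median 0.07). As deposited they included *Itgav* (1.97), an integrin subunit for bridging proteins, *Lrp1* (1.46), an engulfment receptor, *Mfge8* (1.34), a bridging protein for phosphatidylserine, and *Crk* (1.02), an adaptor upstream of Rac. *Elmo1*, *Elmo2* and *Scarb1* did not pass the rule (0.53, 0.46 and 0.27). *Abca1*, one of the higher genes, was under 1 FPKM in every other group and passed the filter only through *Snord116del* at Zt +6. Of the signalling genes downstream of the receptors, 6 of 10 were higher, with a median of 0.75, and with the same median 3 were higher and 3 lower. *Plcg1* (1.67), *Pik3ca* (1.53), *Pik3r1* (1.29) and *Ptk2* (1.24), which encode a phospholipase, subunits of phosphoinositide 3-kinase and focal adhesion kinase, were the largest. *Src*, *Grb2*, *Akt1* and *Ifnar2* were at 0.57, 0.10, 0.08 and 0.06.

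The shorter lists were more mixed. The proteases *Adam10* (0.94) and *Adam17* (0.89), which shed TAM receptors from the cell surface, were both higher. *Adam17* was under 1 FPKM in every other group and passed the filter only through *Snord116del* at Zt +6. Of the genes of vitamin K-dependent carboxylation, the modification on which Gas6 and protein S depend, *Ggcx*, the carboxylase, was higher (0.91), and *Vkorc1l1* (0.29) and *Vkorc1* (-0.39), which recycle vitamin K, were not past the rule. *Tub*, a reported further ligand, was higher at 1.09, and *Tulp1* and *Lgals3* did not pass the filter. Of the nuclear receptors reported to act upstream of *Mertk*, *Ppard* (1.21) and *Nr1h2* (0.60), which encodes a liver X receptor, were higher, *Rxra* (0.55) was not past the rule, and *Nr1h3* and *Pparg* did not pass the filter. At Zt +16, 5 of the 34 tested pathway genes were higher (*Mfge8*, *Src*, *Akt1*, *Nr1h2* and *Bai1*), beside 19% of all tested genes, so the list did not stand out. None was lower past the rule, and the median was 0.31 against 0.35 over all genes.

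Markers of the cell types that carry TAM receptors differed between the groups as well. Of 10 astrocyte markers, 9 were higher in *Snord116del* at Zt +6, with a median of 1.21, beside 49.3% of all tested genes. With the same median 5 were higher and 1 lower, and with the trend on length removed 4 were higher. *Slc1a3* (1.80) and *Slc1a2* (1.65), the glutamate transporters, *Aqp4* (1.68), the water channel of astrocyte endfeet, *Gjb6* (1.47) and *Gfap* (0.81) were among them, and *Aldoc* (-0.08) was not past the rule. All 7 tested endothelial markers were higher, among them *Slco1a4* (1.58), *Flt1* (1.53), *Abcb1a* (1.44), *Cldn5* (1.10) and *Pecam1* (0.97), with a median of 1.10, but 3 of 7 were with the same median and 2 of 7 with the trend on length removed. The filter partly set this count. *Flt1*, *Pecam1* and *Cdh5* were under 1 FPKM in every other group and passed only through *Snord116del* at Zt +6, while *Tek*, *Kdr* and *Ocln* did not pass. The summed level of the 10 markers of the list was 10.5 FPKM in WT and 32.5 FPKM in *Snord116del* at Zt +6, and 6.28 and 7.62 FPKM at Zt +16, which is the order of the groups for *Mertk* and *Gas6*. The share of all tested genes with this order was not counted. Sums of the full neuronal, cortical neuron and oligodendrocyte lists had other orders. The 4 cortical neuron markers other than *Tbr1*, the most abundant, summed to 19.7 FPKM in WT and 45.7 FPKM in *Snord116del* at Zt +6. At Zt +16 they summed to 15.1 and 19.0 FPKM, which is again the order of *Mertk* and *Gas6*. The neuronal and oligodendrocyte sums kept other orders without their most abundant gene, *Snap25* or *Mbp*. The summed astrocyte markers were at 396 FPKM in WT and 608 FPKM in *Snord116del* at Zt +6, and at 541 and 828 FPKM at Zt +16, an order set by *Aldoc* alone. Without *Aldoc* the other 9 summed to 121, 347, 75.6 and 115 FPKM, in the order of *Mertk* and *Gas6*. Both tested mural cell markers, *Rgs5* (1.61) and *Acta2* (0.61), were higher too, and the 5 mural markers summed to 10.2, 29.1, 5.16 and 8.64 FPKM in the same order of groups. Without *Rgs5* the other 4 were at 3.67, 7.06, 2.39 and 4.10 FPKM, with *Snord116del* at Zt +16 above WT at Zt +6.

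The microglia list did not move as one at Zt +6. Of 13 tested markers, 6 were higher at Zt +6, *Tyrobp* was lower (-0.67), and the median of 0.58 was near the 0.57 of all tested genes. *P2ry12* (1.80), *Siglech* (0.94), *Csf1r* (0.89) and *Cx3cr1* (0.68) were among the higher ones, and *Aif1* (0.39) was not past the rule. With the same median 1 was higher and 4 lower (median -0.14). With the trend on length removed 5 were higher and 1 lower (median 0.37). Under that last setting the medians were 0.52 for astrocytes, 0.49 for endothelium, 0.61 for mural cells and 0.42 for oligodendrocytes. They were 0.21 for cortical neurons and 0.11 for neurons. The 15 markers summed to 159 FPKM in WT and 186 FPKM in *Snord116del* at Zt +6, and to 200 and 359 FPKM at Zt +16. Without *Tyrobp* alone the other 14 summed to 111, 157, 130 and 229 FPKM, again highest in *Snord116del* at Zt +16. Without the 3 most abundant, *Tyrobp*, *C1qb* and *C1qc*, the other 12 summed to 57.0, 101, 57.9 and 93.9 FPKM. That sum was highest in *Snord116del* at Zt +6, as *Mertk* was. Unlike *Mertk*, it was nearly as high in *Snord116del* at Zt +16, above WT at Zt +6. At Zt +16, 8 of the 13 tested microglia markers were higher in *Snord116del* than in WT, beside 19% of all tested genes. None was lower past the rule, and the median was 0.60 against 0.35 over all genes. Of the astrocyte markers 4 of 10 were higher there (median 0.39), and of the endothelial markers 0 of 7 (median 0.16). These Zt +16 counts were not repeated under the other scalings. The shares of higher genes at Zt +6 in the microglia list and in the next 3 lists are to be read beside the 49.3% of all tested genes. Of the neuronal markers, 4 of 8 were higher, with *Syt1* (1.62), *Gad2* (1.36), *Gad1* (1.28) and *Rbfox3* (0.66) past the rule and *Slc17a7* (0.27) not, and the median was 0.54. Of the cortical neuron markers, 3 of 5 were higher, among them *Cux2* (1.36) and *Neurod6* (0.62). Of the oligodendrocyte markers, 4 of 7 were higher, with *Mobp* at 1.28, *Mog* at 1.02 and *Mal* at 0.88, while *Mbp* was at 0.43.

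Other sources were looked at in the same way. *Hbb-b1* (1.26) and *Alas2* (1.47), the tested markers of red blood cells, were higher at Zt +6, and *Hba-a1* was listed at 0 in all 4 groups. Of the choroid plexus markers, *Kcnj13* (0.98) was higher and *Ttr* (-0.14) was not past the rule. *Kcnj13* was under 1 FPKM in every other group and passed the filter only through *Snord116del* at Zt +6. The summed blood markers were at 37.2 FPKM in WT and 92.4 FPKM in *Snord116del* at Zt +6, and at 19.9 and 27.1 FPKM at Zt +16. That is the order of *Mertk* and *Gas6*, set by *Hbb-b1*. The other 2 summed to 0.451, 3.02, 0.972 and 1.12 FPKM, in another order. Those of choroid plexus were at 203 and 187 FPKM at Zt +6, and at 26.4 and 31.7 FPKM at Zt +16. There WT was above *Snord116del* at Zt +6 and below it at Zt +16. *Ttr* made up most of the choroid plexus sum, and the other 4 markers summed to at most 5.14 FPKM, reached in *Snord116del* at Zt +6. The part of these cell types in the levels of *Mertk* and *Gas6* was not tested.

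In *Snord116del*, most genes of several lists were lower at Zt +16 than at Zt +6, as *Mertk* and *Gas6* were. Lower past the rule were 7 of 10 astrocyte markers (median -1.55), all 7 tested endothelial markers (median -1.57) and 11 of 15 engulfment genes (median -1.02), beside 39.1% of all tested genes lower and 64% past the rule in either direction. The filter on the mean partly set the endothelial count here too, and through *Abca1* the engulfment count. Over all pathway lists, 22 of 34 were lower, with a median of -0.82, and 3 were higher, namely *Vkorc1*, *Vkorc1l1* and *Grb2*. With the same median 13 of the 34 were lower and 7 higher. The summed astrocyte level was higher at Zt +16 through *Aldoc* alone, which was at 261 FPKM at Zt +6 and 713 FPKM at Zt +16, and the sum of the other 9 was lower there, as the list's median was. With the trend on transcript length removed the medians were -0.92 for astrocytes and -0.83 for endothelium, but -0.05 for engulfment and -0.09 over all pathway lists.

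**Figure D4:**
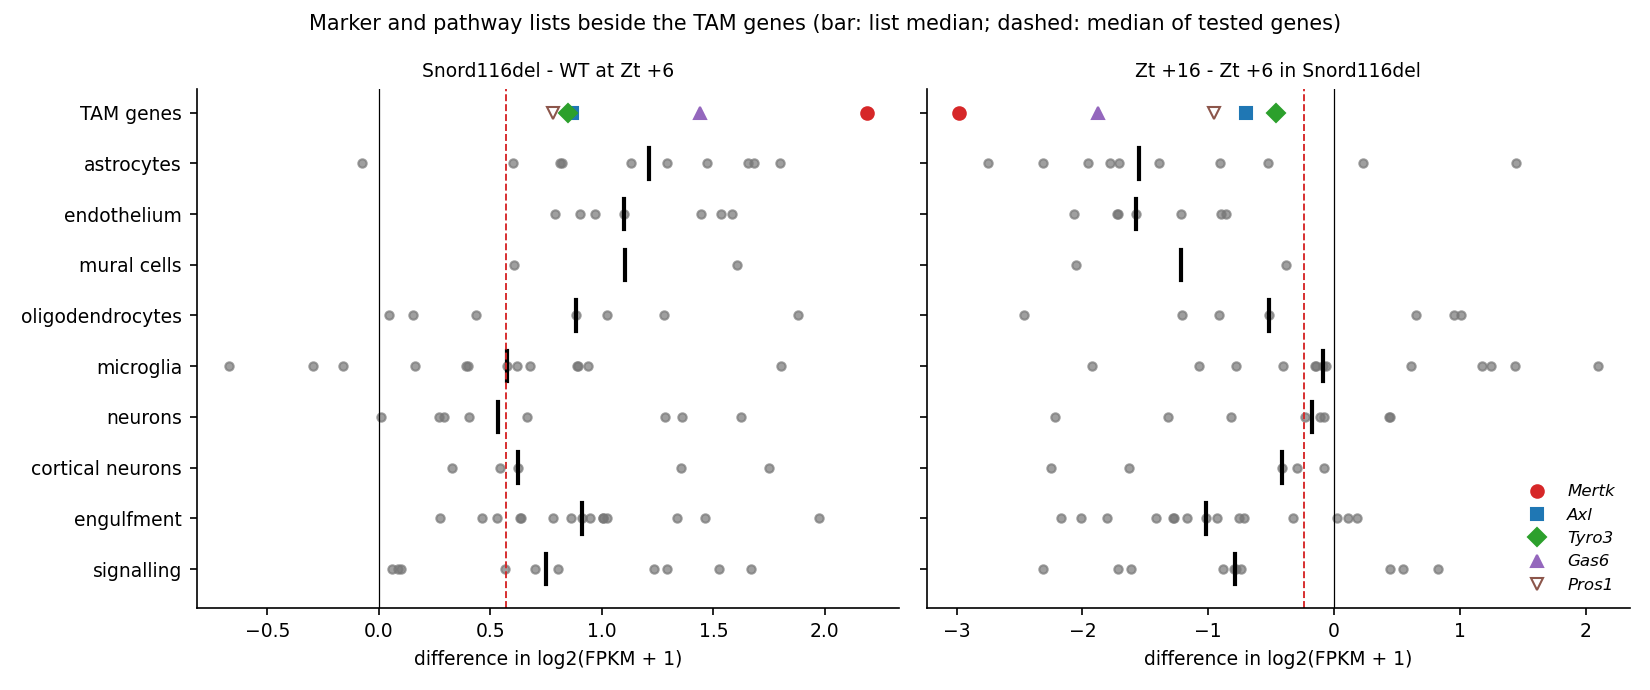
Difference in log2(FPKM + 1) (x axis) of each tested gene (grey points) of the marker and pathway lists (y axis) beside the TAM genes, for *Snord116del* minus WT at Zt +6 (left) and Zt +16 minus Zt +6 in *Snord116del* (right), with the median of each list (bar) and of all tested genes (dashed line). The astrocyte (1.21) and endothelial (1.10) medians at Zt +6 lie right of the dashed line at 0.57 and the microglia median (0.58) on it, and *Mertk* lies right of every marker shown.

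The genes whose pattern over the 4 groups was most like that of each member were found by the root mean square difference of log2(FPKM + 1), centred over the 4 groups, among all tested genes. For *Mertk* they were *Gpr158* (0.034), *Dgkb* (0.046) and *Pcdh7* (0.056). *Gpr158* was at 4.30, 22.7, 1.60 and 2.17 FPKM in the 4 groups, in the order of the plot of levels. For *Gas6* they were *Elk4* (0.0072), *Erc2* (0.0083) and *D5Ertd579e* (0.021). For *Axl* they included *Zfp36l1* (0.012) and *Kcnab2* (0.015), for *Tyro3* they were *Rnf112*, *Ppox* and *Lrrc59* (0.022 to 0.029), and for *Pros1* they were *Ttf1*, *Pou6f1* and *Ttc8* (0.014 to 0.018). With 4 groups a close match is easily met, and the values describe these groups only.

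Peaks of *116HG* ChIRP replicate 1 were numerous at the 5 genes, and those of replicate 2 and of the controls were not found at them. Within 2 kb, replicate 1 had 10 peaks at *Tyro3*, 9 at *Mertk*, 8 at *Gas6*, 3 at *Axl* and 2 at *Pros1*. The 5 of 5 genes with a replicate 1 peak compare with 59.4% of the 21853 genes of the table that the annotation names, and with 93.6% of those with a mean of at least 1 FPKM, which had a median of 4 peaks per gene. More peaks than at *Mertk* were found at 2132 genes of that level, and more than at *Tyro3* at 1792. For the other lists, 0 of 5 members compare with 13.9% of genes for replicate 2, 2.3% for WT NSC, 2.26% for *116HG* on *Snord116del* brain and 7.88% for NSC on *Snord116del* brain, so that most genes also had no such peak. Any of the 3 controls had a peak at 10.8% of genes.

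The distance to the nearest peak of replicate 2 was 131 kb at *Mertk*, 105 kb at *Axl*, 98.2 kb at *Pros1*, 85.0 kb at *Gas6* and 5.07 kb at *Tyro3*. Replicate 1 and replicate 2 lists are of unequal size, 78033 and 11145 peaks, and the list of replicate 2 gives positions only. The nearest peak of *116HG* oligos on *Snord116del* brain, a list of 1280, was 185 kb from *Axl* and farther from the other 4 genes.

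At *Tyro3*, 3 of the 10 replicate 1 peaks counted as replicated within 10 kb, with gaps of 8893, 7745 and 6741 bases to a replicate 2 peak. *Tyro3* was therefore 1 of 5 members with a replicated peak, against 11.2% of genes, or 10.9% where only replicate 1 peaks within 2 kb are counted. No peaks of the replicates overlapped there directly, and under that stricter rule 0 of 5 members were counted. The closest pair was outside the gene, where the upstream replicate 1 peak printed above was 1058 bases from the upstream replicate 2 peak.

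The widest and highest peak of the 32 was at the 3′ end of *Tyro3*, chr2:119642931-119643842, 912 bases over the last exon with a fold over input of 236, and 96.6% of the replicate 1 list was below it. The next highest at *Tyro3* and at *Pros1* were at 92.3, and the highest at *Mertk* was at 82.1, again over the last exon (chr2:128626888-128627492, 605 bases). At *Gas6* no peak exceeded 61.6 and at *Axl* no peak within 2 kb exceeded 51.3, with a median of 55.3 over the list. Past the end of *Axl*, 2521 and 6277 bases away and in the neighbouring gene *Hnrnpul1*, lay peaks of 113 and 51.3. The fold values can rank such peaks only coarsely. Of the 32 peaks, 28 had a fold within 0.02 of a multiple of 10.26, as had 68.0% of the whole list, and the 32 peaks took only 12 distinct values, 41.04 at 10 of them and 51.3 at 7.

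By position along the genes, replicate 1 peaks followed exons. The 10 peaks at *Tyro3*, the 3 at *Axl*, 7 of 8 at *Gas6* and 7 of 9 at *Mertk* touched an exon, and 0 of 2 at *Pros1* did. Exons made up 80.0% of the peak bases but 8.57% of the bases of the 5 genes. At *Mertk*, whose exons cover 4.17% of 103.9 kb, the share of peak bases in exons was 68.3%. This was also the pattern of the replicate 1 list as a whole, since 83.6% of its peaks inside genes of the table had their middle in an exon, against 4.74% of those of replicate 2, 8.12% for WT NSC, 29.4% for *116HG* on *Snord116del* brain and 41.7% for NSC on *Snord116del* brain. Of genes with a mean under 1 FPKM, 29.5% had a replicate 1 peak within 2 kb, so the share with a peak also moved with transcript level. The part of RNA carried into the libraries in these peaks was not tested.

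**Figure D5:**
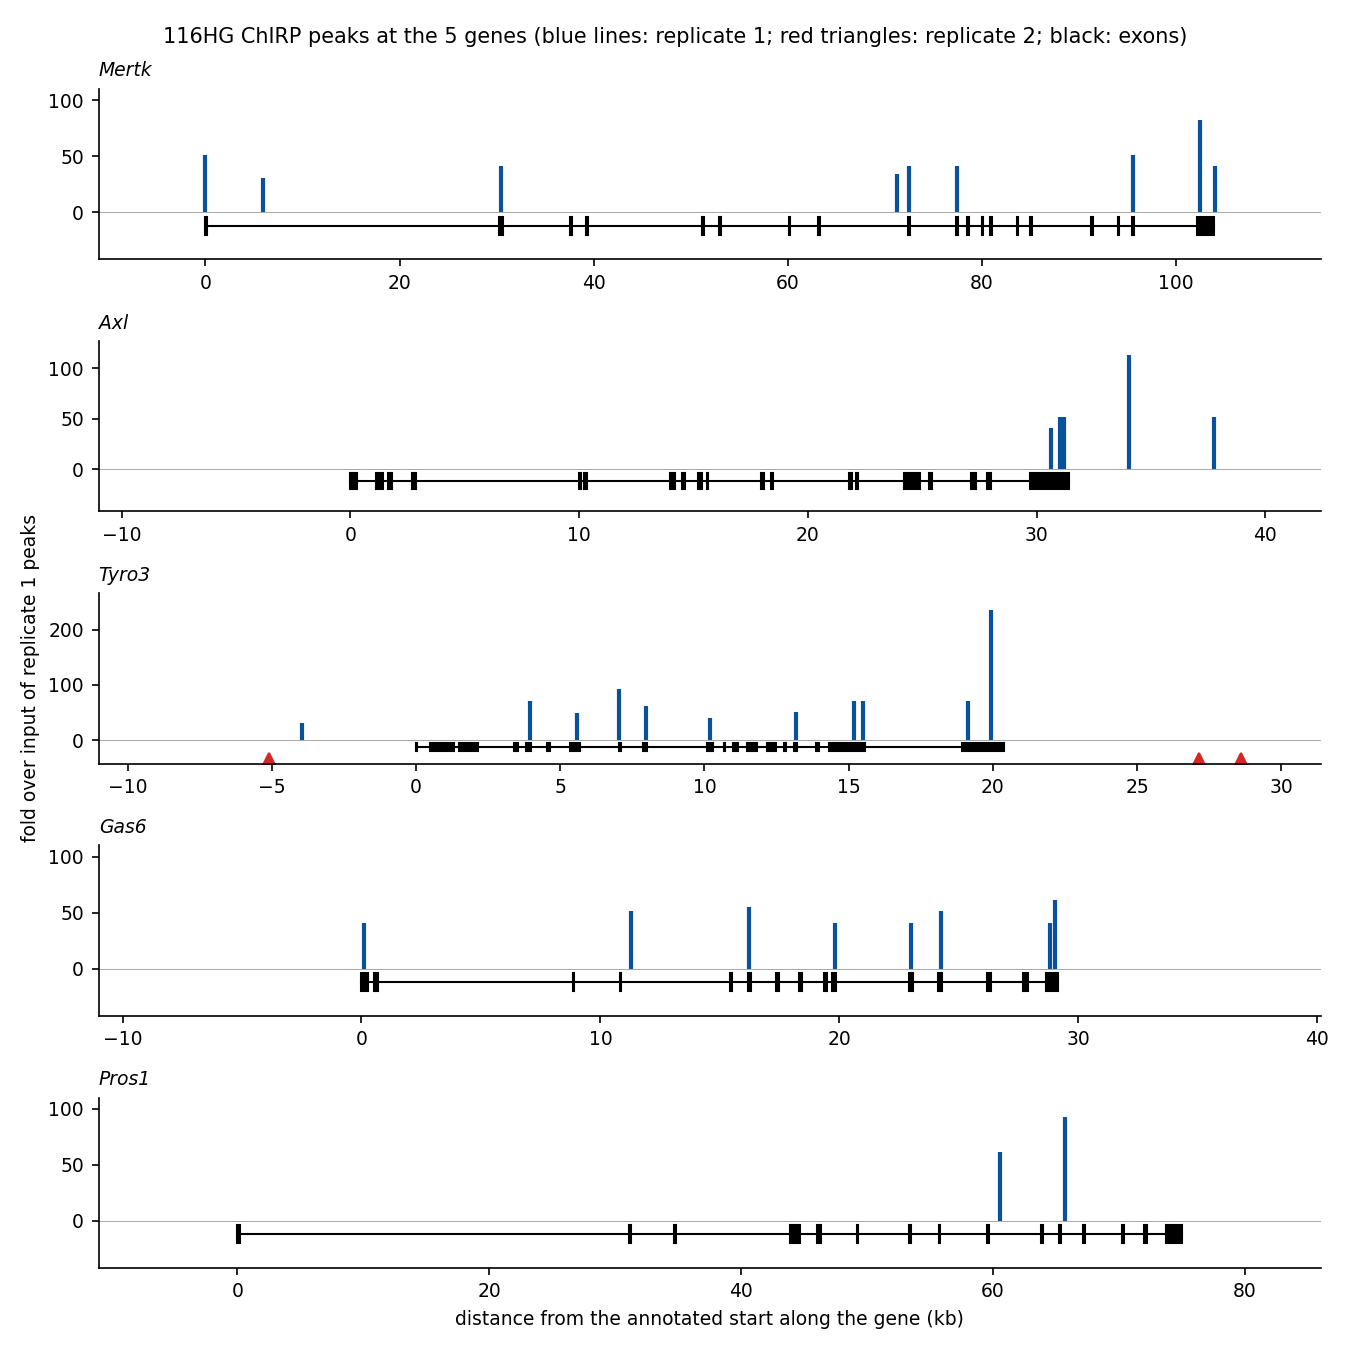
*116HG* ChIRP peaks along the 5 genes and 10 kb on each side, drawn from the annotated start (x axis, kb along the gene): blue lines give the authors' fold over input of replicate 1 peaks (y axis), red triangles replicate 2 peaks, which have no height, and black boxes exons. Most replicate 1 peaks inside the genes stand over exons at *Mertk*, *Axl*, *Tyro3* and *Gas6* and between exons at *Pros1*, and replicate 2 peaks appear only outside *Tyro3*.

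Start sites held few peaks. Besides the *Mertk* peak printed above, *Gas6* had a peak in its first exon, chr8:13494385-13494502, and *Axl*, *Tyro3* and *Pros1* had none at the annotated start. The promoter windows of RefSeq (GRCm38.p6, 300 bases from 250 before to 50 after the start, 1 per member and 32851 in all) were searched on both strands for short motifs. The E-box CACGTG, which clock factors bind, was in none of the 5 windows, against 7.15% of all promoters. The GC box GGGCGG was in all 5, with 6 matches at *Tyro3*, 5 at *Pros1*, 4 each at *Mertk* and *Gas6* and 2 at *Axl*, against 35.7% of all promoters with at least 1. The 5 windows were 58.3% (*Gas6*) to 73.3% (*Tyro3*) GC, and promoters of like GC were not compared. The DR4 element, a liver X receptor motif, was in none of the 5 windows and in 0.0152% of all promoters, and letters missing from these windows say nothing of the factors.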

How the data were processed

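Cortex RNA-seq of 9 mice and 5 lists of ChIRP peaks were used. Per the submitters' processing notes, reads came from CASAVA 1.8.0, RNA-seq was aligned with TopHat2 2.0.5 and quantified with Cuffdiff 2.0.2, and ChIRP reads were aligned with Bowtie2 2.0.0 and peaks called with MACS 1.4.2, on mm9. The authors deposited FPKM as 1 value per group, over the mice of that group. Their log2 fold change and q-value columns, made by the authors from the same comparisons, were not used, and 0 per-sample columns were left out. Peaks were called per library against WT input, and the deposited lists give each peak's ratio over input (fold) as the authors' caller wrote it, except replicate 2 of WT *116HG*, of which only positions were used.

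Differences were computed on log2(FPKM + 1) for genes whose mean over the groups reached 1 FPKM, with a fold rule of 1.5, which is 0.58 on the log2 scale. Without values per mouse no test was run. Alternatives were a pseudocount of 0.1, a fold of 2, no filter, the same median or the same *Gapdh* in every group, quantile normalization, and subtraction of a running median over 501 genes ordered by transcript length. Of 23235 symbols, 21853 matched the GENCODE annotation of NCBIM37, which is mm9. All 96327 peaks on named sequences lay within those sequences. Peak counts used a window of 2 kb around genes, and replication a distance of 10 kb. Coordinates are 1-based. Promoters are those of RefSeq.

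The members and lists were chosen with earlier results of these data known. Genes named were the members, up to 4 genes of each list with the largest difference at Zt +6 among those past the rule, the defining markers of each cell type, and the 3 genes most like each member. Some genes that this rule names are not reported here. Lists covered carboxylation, further ligands, sheddases, signalling, engulfment and upstream nuclear receptors, and markers of astrocytes, microglia, endothelium, mural cells, oligodendrocytes, neurons, cortical neurons, choroid plexus and blood. The scripts, which used pandas 2.3.3, numpy 2.4.6 and matplotlib 3.10.9 under Python 3.11.15, were tested on simulated data.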

Additional observations from a re-analysis of the deposited data

How the results depend on the processing

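No paired analysis was possible because the expression table holds group values without replicate numbers, and no result came from a test. At Zt +6 the count of tested TAM genes past the rule fell from 4 to 2 (*Mertk* and *Gas6*) with the same median in every group, with quantile normalization, at a fold of 2 and with the trend on length removed. At Zt +16 it fell from 1 to 0 under these and under *Gapdh* scaling. Between times in WT it fell from 2 to 1 with quantile normalization and to 0 at a fold of 2, and in *Snord116del* it went from 3 to 2 with the same median, quantiles, a fold of 2 and the length trend removed, and to 4 with *Gapdh* and, with *Pros1* counted in, with no filter. Members with a replicated peak fell from 1 to 0 under direct overlap, and ranged from 0 to 5 when either replicate was left out. Signs turned for *Axl* (-0.0016) and *Tyro3* (-0.015) at Zt +6 with the length trend removed. At Zt +16 they turned for *Gas6* with the same median (-0.057) and quantiles (-0.053), for *Mertk* (-0.049), *Axl* (-0.24), *Tyro3* (-0.20), *Gas6* (-0.35) and *Pros1* (-0.017) under *Gapdh*, and for *Mertk* (-0.10), *Gas6* (-0.14) and *Pros1* (-0.27) without the length trend, which also turned *Axl* (0.017) and *Tyro3* (0.27) between times in *Snord116del*. List medians, an alternative chosen after seeing the data, turned at Zt +6 with the same median for carboxylation (-0.42), nuclear receptors (-0.016), microglia (-0.14), cortical neurons (-0.14), neurons (-0.28) and choroid plexus (-0.23), with quantiles for carboxylation (-0.41), and without the length trend for carboxylation (-0.20) and signalling (-0.039). Over all genes, calls at Zt +6 went from 5858 to 3059 (fold of 2) and 2668 (length), at Zt +16 from 1980 to 3141 (pseudocount), 179 (median), 95 (quantile), 993 (*Gapdh*), 143 (fold of 2) and 172 (length), in WT between times from 1645 to 2694 (pseudocount), 287 (fold of 2) and 1023 (length), and in *Snord116del* from 6593 to 4368 (fold of 2). The share of calls that were higher at Zt +6 was 86.6% as deposited, 38.1% with the same median, 49.7% with quantiles, 97.6% with *Gapdh* and 48.2% without the length trend, and at Zt +16 it was 98.9%, 70.4%, 42.1%, 1.71% and 58.1%. In WT between times it was 35.7% as deposited, 53.1% with the same median, 28.0% with quantiles and 5.34% with *Gapdh*, and in *Snord116del* 39.0%, 56.9%, 51.5% and 2.49%, with 50% without the length trend. A higher fold calls fewer genes by construction. Sums of marker lists without their most abundant genes, given with the lists, were also chosen after seeing the data. The cause of the other shifts was not tested.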
